A study of Mus musculus with 21 samples.

Results

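The genes described here are 32 components of the core autophagy machinery, taken by name from the mouse count table: genes for the initiation, nucleation, membrane supply and conjugation steps, for 4 receptors and mitophagy proteins, and for 3 regulators, without the Atg8 family. All 32 names matched a gene among the 46071 in the table, and 31 of them passed the filter on low counts that left 12658 genes to test. The missing one was Atg2a.

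Autophagy encloses cytoplasm in a double membrane and delivers it to the lysosome. Nutrient shortage releases the Ulk kinase complex from the kinase mTOR, a lipid kinase complex built on Beclin 1 then marks the site, Atg9a vesicles and lipid transfer proteins feed the growing membrane, and a ubiquitin-like conjugation system attaches Atg8 proteins to it. In skeletal muscle this pathway removes mitochondria and proteins during fasting and wasting, and FoxO transcription factors are known to turn on several of its genes when insulin is low.

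RNA sequencing of quadriceps and gastrocnemius muscle, powdered together, gave 21 libraries from mice on a mixed background of C57Blk6, C57Blk6J and 129 strains. All animals carried floxed Foxo1, Foxo3 and Foxo4. In the triple knockout (TKO) a Cre recombinase under the skeletal actin promoter ACTA1 deleted the floxed parts in muscle fibres, so that other cells of the tissue keep the genes, and floxed littermates served as controls. Diabetes was induced with streptozotocin (STZ), which destroys pancreatic beta cells, at 150 mg/kg. Females received a second injection of 75 mg/kg on day 3, and mice whose random blood glucose stayed above 300 mg/dL were used. The 4 groups were floxed without STZ (4 libraries), TKO without STZ (6), STZ floxed (5) and STZ TKO (6). The libraries without STZ are labelled as given no drug, and the series' design names a citrate buffer injection as the control. The sources used here do not give the age or sex behind each library or the day of collection.

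Total counts per library ranged from 2951290 to 7687823. Foxo4 separated the genotypes in every library, at 3.87 to 12.7 CPM (counts scaled to a common library size) in the 12 knockouts and 124 to 201 CPM in the 9 floxed libraries, and Foxo1 did so at 7.00 to 26.7 against 36.4 to 113 CPM. Foxo3 counts were not lower: its knockout difference was 0.40 ± 0.25 without STZ and 0.59 ± 0.23 under STZ (log2, standard error; not past the threshold), and counts over a whole gene can include exons that the deletion leaves in place. Skeletal muscle markers were high in all libraries, with 13 of them summing to 70000 to 234000 CPM. The lowest sum was that of STZ floxed library 17, with the other STZ floxed libraries at 143000 to 216000 CPM. Library 17 also had the lowest mean log2 levels of muscle markers (-1.41) and of fibroblast markers (-2.2). Macrophage markers differed with genotype: 15 genes summed to 172 to 302 CPM in floxed libraries and 299 to 2560 CPM in knockouts, their mean log2 level lay at -1.21 to -0.64 in floxed libraries and -0.56 to 2.27 in knockouts, and all 15 were higher in the knockouts averaged over STZ. The highest macrophage levels were in libraries 20, 4, 15 and 16. Of 12 denervation and regeneration genes, 6 were also higher in the knockouts. Of 8 endothelial markers, all 8 had negative knockout differences and 1, Tie1, was lower past the threshold. Among the other markers, 1 of 10 fibroblast markers was higher and 1 of 7 adipocyte markers lower. Of 13 skeletal muscle markers 1 was higher, and of 4 tested cardiac and smooth muscle markers 1 was higher and 1 lower. In this averaged comparison 5.57% of all genes tested were higher and 4.23% lower. A count of 1 in 4 to 13 markers in a given direction cannot be set apart from these shares. Library 8, an STZ TKO, had the highest mitochondrial share, 8.46% of its counts against a median of 4.6%.

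RefSeq promoter windows (250 bases before to 50 after the start, GRCm38.p6) were at hand for 27 of the 32 genes. In 23 of them a window starts within 1000 bases of the start of the GENCODE gene; those of Atg4b, Atg7, Atg14 and Wipi2 belong to RefSeq starts farther inside the gene. They were not at hand for Atg12, Pik3c3, Atg16l1, Rb1cc1 and Becn1. Of the members that were lower in the knockouts, Ulk1 and Pink1 are shown here, by the stretch of the window that holds no annotated exon. The capitals mark GC boxes, GGGCGG or its complement CCGCCC. The Ulk1 stretch, chr5:110810098-110810331 on the minus strand, ends 16 bases before the start, has 66.2% G and C and holds 5 boxes. The Pink1 stretch, chr4:138326308-138326546 on the minus strand, ends 11 bases before the start, has 56.1% G and C and holds 1 box.
Ulk1: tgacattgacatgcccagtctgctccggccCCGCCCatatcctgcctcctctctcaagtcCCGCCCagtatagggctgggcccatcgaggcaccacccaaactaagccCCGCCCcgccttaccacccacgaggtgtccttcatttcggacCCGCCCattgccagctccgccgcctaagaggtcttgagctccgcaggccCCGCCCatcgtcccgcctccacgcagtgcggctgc
Pink1: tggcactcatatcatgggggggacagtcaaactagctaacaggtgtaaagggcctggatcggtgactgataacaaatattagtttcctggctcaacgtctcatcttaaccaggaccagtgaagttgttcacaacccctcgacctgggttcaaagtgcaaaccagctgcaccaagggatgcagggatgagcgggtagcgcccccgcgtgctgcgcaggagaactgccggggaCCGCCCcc

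On both strands of the windows, GGGCGG was found in 19 of the 27 genes, against 38.2% of all 27025 genes with a window. The forkhead element GTAAACA was found in 0 of the 27, against 4.05% of all genes, and the insulin response element CAAAACAA in 0 of the 27, against 2.88%. CACGTG, the core of the element bound by Tfeb and related factors, was found in 4 of the 27, against 8.09% of all genes. These 4 are Atg3, Atg5 and Atg7 of the conjugation system and Atg14 of the lipid kinase complex, and Atg3 has it at 2 places. Each stretch of 30 bases shown has CACGTG in capitals. They lie at chr16:45158723-45158752 and chr16:45158746-45158775 (Atg3, plus strand), chr10:44268313-44268342 (Atg5, plus strand), chr6:114670952-114670981 (Atg7, plus strand) and chr14:47568418-47568447 (Atg14, minus strand). The windows of Atg7 and Atg14 belong to RefSeq starts 28.0 and 2.21 kilobases inside the GENCODE genes, so that these stretches do not lie upstream of the whole gene. A match is a run of letters and not a measured binding site, and no match covers this window only.
Atg3, first: gcctccttttgtCACGTGtcctgggagagt
Atg3, second: ggagagtcgagtCACGTGaggccttaggtg
Atg5: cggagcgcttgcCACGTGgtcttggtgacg
Atg7: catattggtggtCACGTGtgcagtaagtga
Atg14: aaaacaaaatccCACGTGactggccctgag

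In floxed muscle, levels per kilobase of annotated exon differed widely between the genes. Pink1, the kinase that marks damaged mitochondria for removal, stood far above the rest at 373 ± 88 CPM per kilobase (SD, n = 4). Ulk2 followed at 34.0 ± 2.14 and Optn at 33.9 ± 9.87 CPM per kilobase, which did not differ beyond their spread. Ulk1 (20.6 ± 1.24), Wipi1 (20.1 ± 2.44) and Nbr1 (20.1 ± 0.426) formed the next group within their spread, then Atg9a at 17.1 ± 2.25, Fundc1 at 15.9 ± 3.07 and Atg13 at 15.5 ± 1.42 CPM per kilobase. The low end held Atg7 at 2.19 ± 0.0671, Pik3r4 at 2.16 ± 0.541, Uvrag at 1.58 ± 0.245 and Tfe3 at 1.54 ± 0.452 CPM per kilobase. Paralogues differed in level per kilobase: Wipi1 stood above Wipi2 (5.93 ± 0.671), Tfeb (9.55 ± 1.98) above Tfe3, and Atg4a (9.05 ± 0.913) above Atg4d (4.61 ± 0.832) and Atg4b (4.13 ± 0.366). The Atg4 order depended on the annotated exon length, which was 2661 bases for Atg4a, 7264 for Atg4d and 8278 for Atg4b. In CPM, Atg4a was the lowest of these, with a mean over all libraries of 24.3 against 29 for Atg4d and 35.2 for Atg4b. The size of the Wipi1 to Wipi2 gap depended on it too, with annotated lengths of 4410 and 10543 bases. Their means over all libraries were 77.8 and 60.2 CPM. In bulk muscle, fewer cells of a type and less RNA per cell cannot be told apart.

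**Figure D1:**
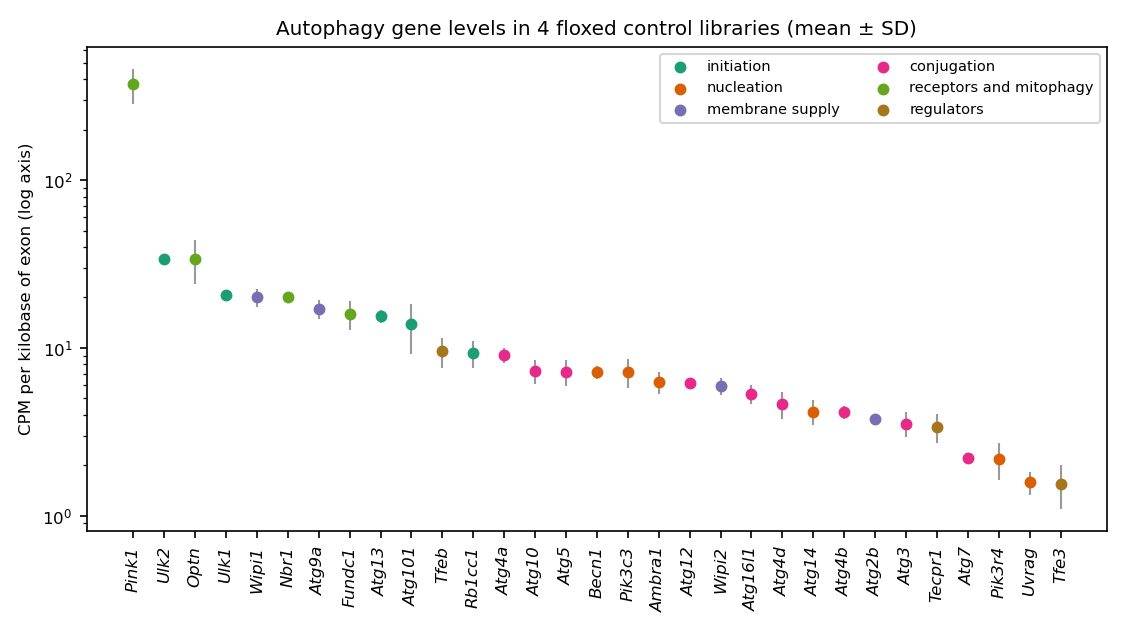
Mean level of the 31 tested genes in the 4 floxed libraries, in CPM per kilobase of exon on a log axis, with bars of 1 SD and colours by role. Pink1, at 373, lies above all others, and Tfe3, at 1.54, is the lowest.

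Atg2a, 1 of 2 genes for the protein that transfers lipids to the growing membrane, had 0 counts in all 21 libraries. With 112857278 counts in all, that allows a level of up to 0.0266 CPM over all libraries, and of 0.39 to 1.02 CPM in a single library (3 counts, counting error only). Its paralogue Atg2b measured 51.0 ± 3.31 CPM in floxed, 44.0 ± 5.58 in TKO, 58.4 ± 6.83 in STZ floxed and 48.6 ± 12.7 CPM in STZ TKO muscle. The limit holds only if reads of this gene could be counted. Of the genes in the autophagy lists, Vamp8, a SNARE protein of fusion with the lysosome, and Tmem74 were also listed at 0 in all 21 libraries. The source of these zeros was not tested.

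The loss of FoxO was compared first over both treatments, as the mean of the knockout effects without and under STZ. In this comparison 5 of the 31 tested genes were lower in the knockouts: Ulk1 and Rb1cc1 of the initiation complex, Atg9a and Wipi2 of membrane supply, and Pink1. No gene was higher. Among all genes tested, 4.23% were lower and 5.57% higher. The median log2 difference over the 31 was -0.08, with 20 below zero, and over all genes it was 0.02. The 5 genes lie at chr5:110784488-110810097 (minus strand), chr1:6206197-6276648 (plus strand), chr1:75180860-75192196 (minus strand), chr5:142627698-142670588 (plus strand) and chr4:138313409-138326307 (minus strand) in that order (GRCm38, GENCODE M21). Counts are per gene, and the exons they cover are not stated in the sources used here. The labels do not say that each library is a separate animal, so these p-values measure the spread between libraries.

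Ulk1, the kinase that starts autophagy, measured 126, 142, 128 and 139 CPM in the floxed libraries and 163, 124, 138, 102 and 160 CPM in the STZ floxed libraries. In the TKO libraries its lowest, median and highest levels were 57.1, 81.1 and 98.9 CPM, and in the STZ TKO libraries 29.1, 87.6 and 145 CPM. Without STZ, all 6 knockouts thus lay below all 4 controls, whereas under STZ the groups overlapped, with knockout libraries 11 and 18 among the controls. Averaged over STZ, Ulk1 fell by 0.68 on the log2 scale (SE 0.19, a fold of 0.624), with an adjusted p of 0.0231 by edgeR's quasi-likelihood test. Its paralogue Ulk2 did not pass, at -0.25 ± 0.14 with a 95% interval of -0.54 to 0.05; the difference between the paralogues was not tested.

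Rb1cc1, the scaffold of the Ulk complex, measured 100, 144, 155 and 147 CPM in floxed and 135, 167, 134, 273 and 179 CPM in STZ floxed libraries. Its TKO levels were 67.1 at the lowest, 96.1 in the middle and 107 CPM at the highest, and its STZ TKO levels 80.1, 118 and 165 CPM. Floxed library 1 lay among the knockouts, and STZ floxed library 17 stood far above all others. Rb1cc1 fell by 0.58 (log2, SE 0.16; adjusted p = 0.025). The call rested on single controls: the adjusted p was 0.0512 without floxed library 5, 0.0592 without floxed library 9, 0.0517 without floxed library 19 and 0.0511 without STZ floxed library 17, with differences of -0.57, -0.55, -0.57 and -0.47. An antisense gene, 4732440D04Rik, shares 558 exon bases with Rb1cc1, and its own mean level was at most 4.47 CPM in any group.

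The other initiation genes did not pass in the fit without a block. Atg13, the regulatory subunit that mTOR phosphorylates, had a knockout difference of -0.16 ± 0.24 without STZ and -0.56 ± 0.22 under STZ, where STZ floxed library 17, at 172 CPM, lay far above the other 4 at 68.0 to 92.6 CPM. The titles' codes were split into 6 runs with gaps of at most 2 between neighbouring codes. With the run of library codes as a block, Atg13 passed in the averaged effect, at -0.46 ± 0.13 (adjusted p = 0.0263). Atg101, which stabilizes Atg13, was at 0.34 ± 0.32 (averaged log2 difference) with an interval of -0.31 to 1.00.

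Atg9a, the lipid scramblase whose vesicles seed the membrane, measured 109, 101, 80.1 and 105 CPM in floxed and 103, 105, 111, 103 and 103 CPM in STZ floxed libraries. In TKO muscle its lowest, median and highest levels were 44.9, 71.9 and 85.7 CPM, and in STZ TKO muscle 32.8, 62.0 and 66.5 CPM. Under STZ the 5 control libraries lay close together and above every knockout, and without STZ only TKO library 2 reached the range of the controls, above floxed library 9. Averaged over STZ, Atg9a fell by 0.70 (log2, SE 0.13; a fold of 0.618), with the smallest adjusted p of the 31 genes, 0.00104. Atg9a shares 46 exon bases with Ankzf1 on the other strand and 1832 with the transcript Gm29253 on the same strand. Ankzf1 differed by -0.09 ± 0.13 and did not pass, and Gm29253 had at most 1 count in any library. How reads in shared bases were counted is not given, so these values do not show whether Atg9a reads were left out there.

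Wipi2, which reads the lipid mark and recruits Atg16l1, measured 64.3, 71.8, 56.7 and 57.4 CPM in floxed and 77.2, 73.5, 74.8, 85.8 and 62.5 CPM in STZ floxed libraries. TKO levels were 46.7, 57.1 and 60.7 CPM (lowest, median, highest) and STZ TKO levels 44.6, 48.9 and 59.3 CPM. Under STZ the groups did not overlap; without STZ they did. The averaged fall was 0.36 (log2, SE 0.10; adjusted p = 0.0205), a fold of 0.781 and the smallest change of the 5, and without floxed library 5 the adjusted p was 0.0578. Its paralogue Wipi1 differed by -0.13 ± 0.11 (interval -0.37 to 0.11) and Atg2b by -0.24 ± 0.13 (interval -0.50 to 0.03), and neither passed.

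Pink1 measured 975, 1300, 995 and 724 CPM in floxed and 1250, 897, 823, 761 and 886 CPM in STZ floxed libraries. TKO levels were 309, 665 and 855 CPM and STZ TKO levels 407, 594 and 659 CPM (lowest, median, highest). Under STZ every knockout lay below every control, and without STZ floxed library 19 lay among the knockouts. Pink1 fell by 0.66 (log2, SE 0.16; a fold of 0.632; adjusted p = 0.0103). The other receptors did not pass: the averaged difference was -0.49 ± 0.20 for Optn, a receptor for marked mitochondria, -0.08 ± 0.12 for Nbr1, a receptor for ubiquitin-tagged cargo, and 0.06 ± 0.18 for Fundc1, a receptor in the outer mitochondrial membrane.

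**Figure D2:**
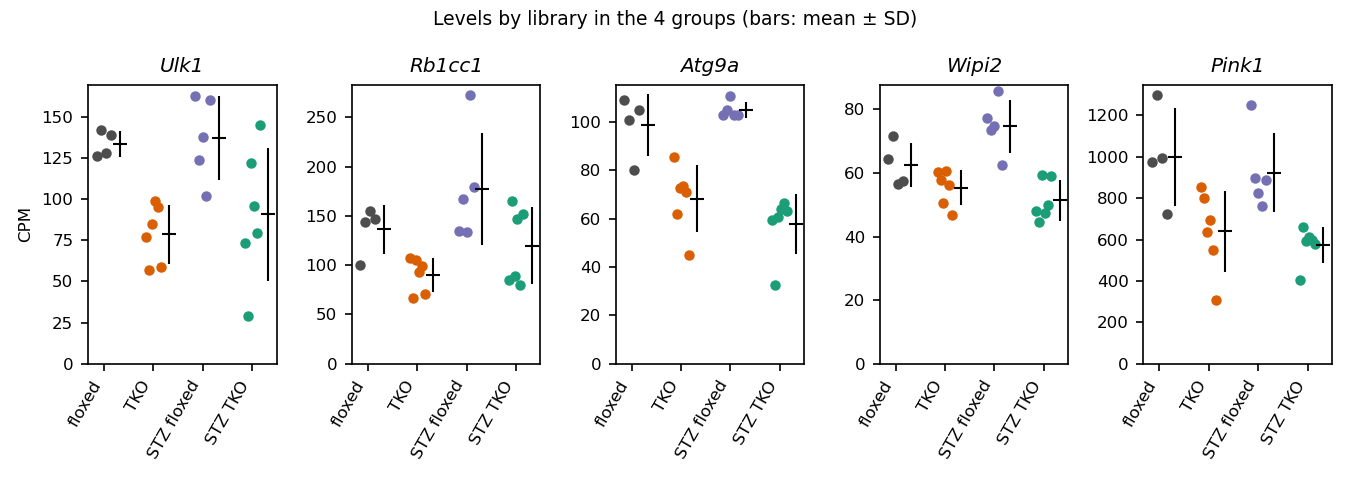
CPM of Ulk1, Rb1cc1, Atg9a, Wipi2 and Pink1 in each library, with the mean and 1 SD of each group beside the points. The knockout means lie below the control means for all 5 genes, and under STZ the Atg9a controls sit between 103 and 111 CPM, above the knockouts at 32.8 to 66.5 CPM.

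The macrophage markers described above differed with genotype, as these 5 genes did, and other tissue markers moved with genotype too. Whether the falls followed the macrophage level from library to library was not tested. The mean log2 level of the endothelial markers was 0.07 to 0.38 in floxed libraries and -0.6 to 0.08 in knockouts. Libraries 20, 4 and 15 had the highest denervation and regeneration levels (2.79, 1.62 and 0.77), with library 16 at -0.46. Only the macrophage level was used as a covariate, and the parts of these traits were not tested apart. With the macrophage level of each library as a covariate, the 5 genes had differences of -0.51 (Atg9a) to -0.24 (Wipi2) and adjusted p-values of 0.263 (Atg9a) to 0.789 (Rb1cc1), so that 0 of 31 passed. This level did not overlap between genotypes, at most -0.64 in floxed libraries and at least -0.56 in knockouts. That fit therefore compares genotypes at equal marker level only through its fitted slope, and no conclusion is drawn from it. The share of all genes passing with this covariate, or without the libraries named next, is not given here. The counts are therefore not read as particular to these genes. Without libraries 4, 15, 16 and 20, the 4 with the highest macrophage levels, only Atg9a passed, at -0.66 with an adjusted p of 0.0062. The others kept their sign there, from -0.30 for Wipi2 (adjusted p = 0.17) to -0.60 for Ulk1 (adjusted p = 0.135), with -0.49 for Pink1 (adjusted p = 0.0619) and -0.44 for Rb1cc1 (adjusted p = 0.166). Scaling by total counts alone also ended the averaged calls of Ulk1 (-0.58, adjusted p = 0.0605), Rb1cc1 (-0.51, adjusted p = 0.0547) and Wipi2 (-0.27, adjusted p = 0.134), and leaving out the filter on low counts ended that of Wipi2 (-0.37, adjusted p = 0.117). How much RNA from cells other than fibres contributed to these genes was not tested.

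Of the 6 nucleation genes, which encode the lipid kinase Pik3c3, its partners Pik3r4 and Becn1, and the regulators Atg14, Uvrag and Ambra1, none passed in any of the 7 comparisons of the fit without a block. Their averaged knockout differences ran from -0.32 (Atg14) to 0.01 (Pik3c3). With the run of library codes as a block, Atg14, which targets the lipid kinase to the site of the new membrane, passed at -0.41 ± 0.12 (adjusted p = 0.0313). Becn1 was at -0.08 ± 0.09, with an interval of -0.27 to 0.11. Of its 7065 exon bases, 3104 are shared with the protein-coding gene Cntd1 on the other strand. Without a stated strand setting, reads of Becn1 and Cntd1 cannot be told apart there.

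Uvrag, which directs the lipid kinase toward endosomes and later steps, had the smallest unadjusted p of its role, 0.0308, for STZ averaged over genotype. It measured 14.6, 17.0, 13.8 and 11.6 CPM in floxed and 19.4, 26.5, 16.1, 25.8 and 14.2 CPM in STZ floxed libraries. In TKO muscle its lowest, median and highest levels were 9.54, 13.7 and 15.1 CPM, and in STZ TKO muscle 10.1, 15.4 and 21.8 CPM. All groups overlapped, and the STZ difference of 0.36 ± 0.16 had an adjusted p of 0.17. An antisense gene, Gm45187, shares 1589 exon bases with Uvrag, and without a stated strand setting their reads cannot be told apart.

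The conjugation system, in which the E1-like Atg7 and the E2-like Atg3 and Atg10 join Atg8 and Atg12 to their targets, Atg5 and Atg16l1 form the final ligase, and Atg4 proteases prepare and release Atg8, had 0 of 9 genes passing in any of the 7 comparisons. The averaged knockout difference had a median of 0.13 over the 9, with 6 above zero, and ran from -0.17 (Atg4d) to 0.30 (Atg10). The 95% intervals were -0.23 to 0.20 for Atg16l1, -0.23 to 0.19 for Atg4b, -0.13 to 0.33 for Atg12 and -0.13 to 0.39 for Atg7. A fall of the size seen for Atg9a (-0.70) lies outside these 4 intervals.

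Atg4d, one of the Atg8 proteases, had the smallest unadjusted p of this role, 0.0164, for STZ in knockouts. Its STZ TKO levels were 19.1, 21.3 and 31.2 CPM and its TKO levels 19.5, 30.9 and 42.6 CPM (lowest, median, highest). The floxed libraries measured 35.2, 40.1, 32.9 and 25.6 CPM and the STZ floxed libraries 33.3, 29.5, 26.5, 28.0 and 24.4 CPM. The groups overlapped, and the difference of -0.47 ± 0.18 had an adjusted p of 0.346. Its neighbour Kri1 shares 1405 exon bases with it on the other strand. The paralogue Atg4a differed by 0.47 ± 0.21 (adjusted p = 0.415) in the same comparison and Atg4b by 0.14 ± 0.13 (adjusted p = 0.694).

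Of the 3 regulators, Tfeb and Tfe3, transcription factors of lysosome and autophagy genes, had averaged knockout differences of 0.02 ± 0.15 and 0.14 ± 0.16. Tecpr1, which tethers autophagosomes to lysosomes, had the smallest unadjusted p, 0.0543, for the knockout under STZ. It measured 50.9, 37.9, 46.0, 49.8 and 33.5 CPM in STZ floxed libraries, and 18.2, 34.9 and 43.9 CPM (lowest, median, highest) in STZ TKO libraries. Its floxed libraries were at 48.3, 52.1, 37.4 and 34.7 CPM, and its TKO libraries at 32.3, 41.1 and 47.1 CPM. The groups overlapped, library 8 was the lowest, and the difference of -0.39 ± 0.19 had an adjusted p of 0.281.

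**Figure D3:**
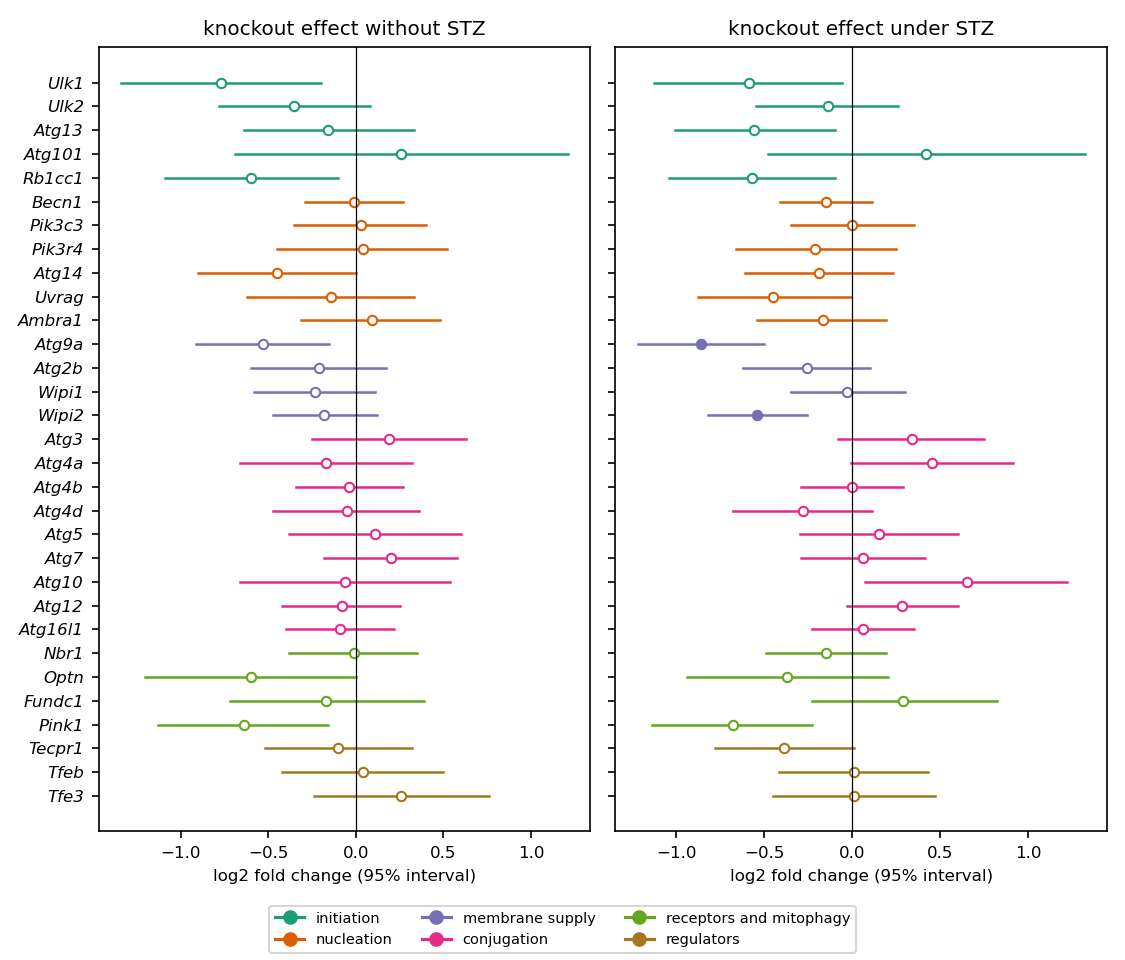
Log2 difference of knockout against floxed with its 95% interval for the 31 tested genes, without STZ (left) and under STZ (right), coloured by role. Filled points passed the threshold: Atg9a at -0.86 and Wipi2 at -0.54, both under STZ.

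Taken separately, the knockout effect under STZ passed for 2 of 31 genes, both lower, against 2.42% of all genes tested lower. Atg9a fell by 0.86 (log2, SE 0.17; adjusted p = 0.00475) and Wipi2 by 0.54 (log2, SE 0.13; adjusted p = 0.0199). Without libraries 4, 15, 16 and 20 the values were -0.92 for Atg9a (adjusted p = 0.00873) and -0.50 for Wipi2 (adjusted p = 0.096). Without the filter on low counts Wipi2 was at -0.55 with an adjusted p of 0.12, and in a fit of the STZ groups alone it was at -0.53 with an adjusted p of 0.0915. Atg9a, Wipi2 and Pink1 were the 3 genes whose STZ TKO libraries all lay below all STZ floxed libraries, against 2.24% of all genes, and 0 lay above, against 1.51%. Pink1, at -0.68 ± 0.22, had an adjusted p of 0.0781, and with the run of library codes as a block it was at -0.80 ± 0.22 with an adjusted p of 0.0294.

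Without STZ, 0 of 31 genes passed in the knockout, against 0.514% of all genes, and DESeq2's Wald test passed 0. An unadjusted p under 0.05 was found for 4 of the 31 and for 1452 of all 12658 genes. These 4 were Atg9a (-0.53 ± 0.18, adjusted p = 0.194), Ulk1 (-0.77 ± 0.28, adjusted p = 0.219), Pink1 (-0.64 ± 0.23, adjusted p = 0.231) and Rb1cc1 (-0.60 ± 0.24, adjusted p = 0.288). Ulk1 alone had all TKO libraries below all floxed libraries, against 2.61% of all genes, and 0 genes had them above, against 2.35%. The interaction, which asks whether the knockout effect differs under STZ, passed for 0 of 31 genes, against 0.0079% of all genes. There 0 of the 31 genes had an unadjusted p under 0.05, against 493 of all 12658, and DESeq2's Wald test passed 0. For Wipi2 the interaction was -0.36 ± 0.20 with an interval of -0.77 to 0.04, and for Atg9a -0.33 ± 0.25 with an interval of -0.85 to 0.20.

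STZ itself changed none of the 31 genes past the threshold. In floxed controls 0 passed, against 1.35% of all genes, and the median difference was 0.04. Of the 31, 4 had an unadjusted p under 0.05, Atg12, Atg13, Atg10 and Uvrag, against 1822 of all 12658 genes. DESeq2's Wald test passed 0 of the 31. Atg12, the ubiquitin-like protein that is joined to Atg5, measured 43.2, 36.3, 31.3, 29.3 and 38.4 CPM in STZ floxed and 47.1, 43.7, 51.8 and 48.7 CPM in floxed libraries. All STZ libraries lay below all controls, the only such gene among the 31, against 5.17% of all genes, and the difference of -0.42 ± 0.17 had an adjusted p of 0.235.

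In knockouts STZ passed for 0 of 31 genes, against 0.142% of all genes, and for 0 by DESeq2's Wald test. An unadjusted p under 0.05 was found for 3 of the 31 (Atg4d, Atg14 and Atg4a) and for 1430 of all 12658 genes. No gene had its STZ TKO libraries all below the TKO libraries, against 0.324% of all genes. Averaged over genotype, STZ passed for 0 of 31 genes, against 4.54% of all genes, and for 0 by DESeq2's Wald test. In this comparison 5 of the 31 had an unadjusted p under 0.05, against 2915 of all 12658 genes. Intervals for the averaged STZ difference were -0.27 to 0.52 for Ulk1, -0.34 to 0.19 for Atg9a, -0.13 to 0.28 for Wipi2 and -0.47 to 0.20 for Pink1.

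The library codes in the titles were split into 6 runs, which the labels do not call batches. A gap of more than 2 between neighbouring codes started a new run, a limit chosen here. Within these runs, 8 pairs of a knockout and a floxed library with the same treatment could be formed. The knockout was the lower of the pair in all 8 for Atg14, Atg9a, Wipi2, Pink1 and Tecpr1, 5 genes, against 5.36% of all genes tested. It was the higher in all 8 for Atg3, the only such gene, against 4.3% of all genes. The pair differences of Atg9a ran from -1.67 to -0.14 with a median of -0.71 (log2 CPM), those of Pink1 from -1.62 to -0.19, and those of Wipi2 from -0.72 to -0.09. Ulk1 was lower in 7 of 8 pairs, with a median of -0.97, and higher by 0.50 in the pair of libraries 17 and 18. Rb1cc1 was lower in 7 of 8 pairs, with a median of -0.70. In the fit with the run as a block, 7 of 31 genes were lower in the averaged effect, Atg13 and Atg14 beside the 5 named first, against 6.34% of all genes. Under STZ 3 of 31 were lower in that fit, against 3.53% of all genes. Atg3 ran from 0.19 to 0.61, while its averaged difference of 0.26 ± 0.15 in the fit over all libraries had an adjusted p of 0.302.

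**Figure D4:**
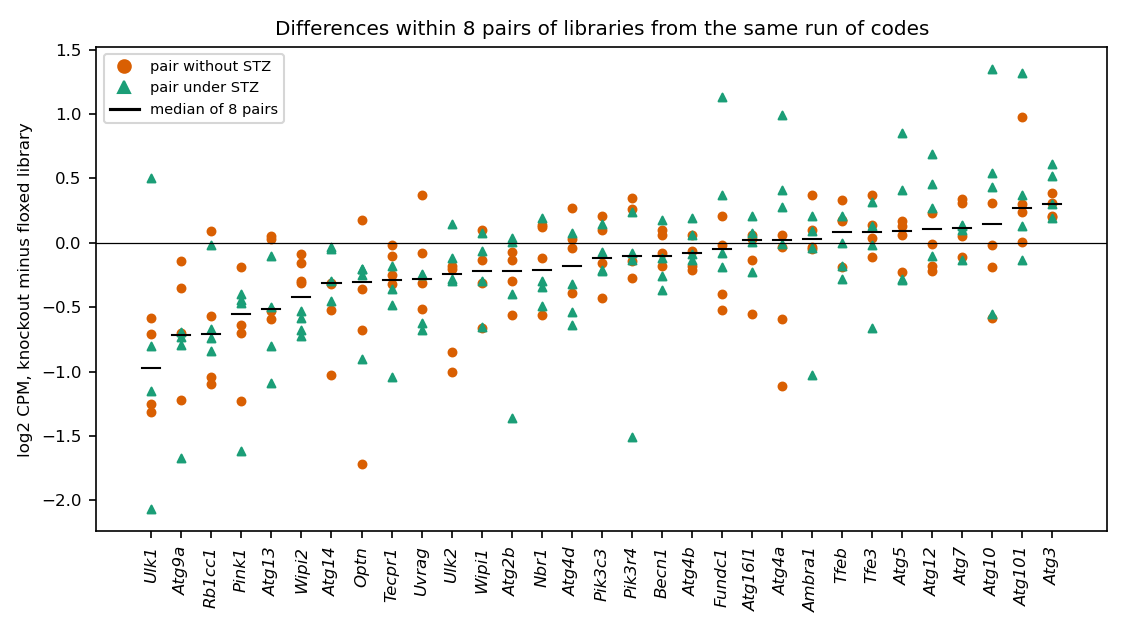
Knockout minus floxed difference in log2 CPM for each of 8 pairs of libraries from 1 run of codes, by gene, with circles for pairs without STZ, triangles for pairs under STZ and a bar at the median. Atg9a, Wipi2, Pink1, Atg14 and Tecpr1 have all points below 0, and Atg3 has all points above 0.

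Other autophagy genes, from lists drawn up for this pathway, were read in the same fit. The alternatives with the macrophage covariate or with left-out libraries were not read for them. Of 16 genes of the Atg8 family and further cargo receptors, 5 were lower and 0 higher in the knockouts averaged over STZ, against 4.23% lower and 5.57% higher of all genes, with a median of -0.32. They were Map1lc3b (-0.64 ± 0.13) and Gabarapl1 (-0.82 ± 0.22), 2 Atg8 proteins that coat the membrane, and the receptors Sqstm1 (-0.67 ± 0.18), Bnip3 (-1.05 ± 0.24) and Calcoco1 (-0.62 ± 0.12). Under STZ 3 of the 16 were lower, against 2.42% of all genes, Map1lc3b at -0.96 ± 0.18, Bnip3 at -1.24 ± 0.33 and Calcoco1 at -0.87 ± 0.16. Of 31 tested genes of a list of further autophagy factors, 2 were lower and 0 higher, Zfyve1 (-0.80 ± 0.12), a marker of the sites where autophagosomes form, and Epg5 (-0.73 ± 0.18), a tether of autophagosomes to lysosomes, and the list's median was -0.05. A count of 2 in 31 is near what the 4.23% of all genes would give. For STZ averaged over genotype, where 2.16% of all genes were higher and 2.38% lower, 2 of the 16 receptors and Atg8 genes were higher, Bnip3 by 0.99 ± 0.25 and Retreg1, a receptor for the endoplasmic reticulum, by 1.62 ± 0.33. Of the 31 further factors 2 were higher and 1 lower: Zfyve1 was higher by 0.43 ± 0.12 and Trp53inp1 by 0.88 ± 0.24, while Trp53inp2, a nuclear protein that moves to autophagosomes, was at -0.86 ± 0.16 (log2 differences with SE; all named genes had an adjusted p under 0.05).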

How the data were processed

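Muscle RNA was measured in 21 libraries. The authors deposited read counts per Ensembl mouse gene, not normalized; per the submitters' processing notes they used STAR, featureCounts and the build GRCm38.p4. Neither version, nor annotation, nor strand setting is given in the sources used here, so reads of overlapping genes on opposite strands cannot be told apart. The library kit keeps the strand, per the labels' protocols. Symbols, coordinates and exon lengths came from GENCODE M21 on GRCm38, which named 45229 of 46071 identifiers; the others, at 0.0478% of the counts, stayed in the library sizes.

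Counts were filtered by filterByExpr over the 4 groups, scaled by TMM and fitted with the robust quasi-likelihood test of edgeR 4.0.16 in R 4.3.3, as 4 group means over all 21 libraries. Tests were two-sided in 7 contrasts, with Benjamini-Hochberg adjustment over 12658 genes within each at 0.05. The biological coefficient of variation was 0.325. CPM are counts scaled by the TMM-adjusted library size; log2 differences are given with their SE or 95% interval. The fit was tested on simulated data. Libraries are named by their title numbers, which are unique and pair no libraries. Among 46 pairs of libraries from 1 group, the lowest chi-square of the counts, divided by its degrees of freedom, was 8.61, so none looked like a library deposited again.

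Levels by library (in groups of 6 as lowest, median and highest) were given for each gene that passed in any contrast and, for a role with none, for the gene with the smallest p. The members, lists and alternatives were chosen with earlier results of these data known. Alternatives were DESeq2 1.42.0 (size factors, and its Wald test), scaling by total counts, no filter, the run of codes as a block, the macrophage level as a covariate, left-out libraries, and fits of the compared groups alone. The list of lysosome genes is not reported here.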

Additional observations from a re-analysis of the deposited data

Results flagged for a closer look

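In groups of 4 to 6 libraries, 124 sets of 1 gene in 1 group were checked for a library whose gap to the nearest other is large against the range of the group, and 18 sets had one; chance gives about 1 in 20. Library 8, an STZ TKO, had 6 of the 18. It was the lowest of its group for Atg9a (32.8 CPM, the others at 59.6 to 66.5), Atg13 (38.8 CPM, the others at 65.0 to 80.4) and Pik3r4 (6.37 CPM, the others at 17.1 to 22.4). It was the highest for Atg3 (20.0 CPM, the others at 9.25 to 12.8), Atg10 (24.6 CPM, the others at 7.28 to 13.0) and Fundc1 (79.2 CPM, the others at 24.1 to 40.8). In the same library the mitochondrial share was 8.46%.

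STZ floxed library 17 was the highest of its group for Atg13 (172 CPM, the others at 68.0 to 92.6) and Pik3c3 (45.4 CPM, the others at 32.2 to 35.8). STZ floxed library 3 was the highest for Pink1 (1250 CPM, the others at 761 to 897) and Pik3r4 (23.8 CPM, the others at 18.8 to 20.1). STZ floxed library 14 was the lowest for Optn (64.4 CPM, the others at 105 to 116) and the highest for Atg9a, by a narrow margin (111 CPM, the others at 103 to 105). STZ TKO library 4, which has one of the highest macrophage levels, was the lowest for Pink1 (407 CPM, the others at 579 to 659).

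Among TKO libraries, library 6 was the highest for Atg101 (56.8 CPM, the others at 14.4 to 29.1) and the lowest for Atg2b (33.5 CPM, the others at 43.9 to 48.9). TKO library 20 was the lowest for Atg10 (8.00 CPM, the others at 12.0 to 14.3), and TKO library 2 the highest for Atg12 (55.2 CPM, the others at 41.5 to 44.4). Floxed library 9 was the highest for Nbr1 (142 CPM, the others at 136 to 137).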

How the results depend on the processing

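No call reversed its direction in any alternative. The averaged knockout count of 5 genes became 2 with total counts, 0 with the macrophage covariate, 1 without libraries 4, 15, 16 and 20, and 3 to 5 with each library left out in turn (3 without floxed library 5). Under STZ the count of 2 became 1 without the filter, 0 with the covariate, 1 without libraries 4, 15, 16 and 20, 1 in a fit of the STZ groups alone, and 2 to 3 with each library left out. The cause was not tested. For the covariate, no-filter, left-out and STZ-only fits the share of all genes passing is not given here. Atg9a passed in 28 of 29 alternatives of the averaged effect and in 29 of 30 under STZ, Pink1 in 27 of 29, Ulk1 in 26, Wipi2 in 24 and Rb1cc1 in 22.

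Median differences moved by more than 1 SD with total counts, to 0.15 for STZ in floxed controls, 0.09 for the knockout without STZ and -0.17 for the interaction, where the same scaling shifted all genes by 0.12, 0.182 and -0.168 (0.099 for the averaged knockout effect). With the covariate the knockout medians were 0.03 without STZ and -0.02 under STZ. Scaling by total counts also moved the averaged knockout calls over all genes from 705 higher and 535 lower to 837 and 335, and STZ in floxed controls from 63 and 108 to 70 and 69. With the run of codes as a block, 7 genes passed in the averaged effect and 3 under STZ, all lower, against 6.34% and 3.53% of all genes. Each title number occurs once, so the labels pair no knockout with a floxed library, and the run of codes served in place of a pairing. Counts as low as 21 (Pik3r4 in library 8) limit the rarer genes.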

Other observations

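Of 29 genes of the kinases and brakes upstream of autophagy, 7 were lower and 1 higher in the knockouts averaged over STZ, where 4.23% of all genes tested were lower and 5.57% higher. The lower ones were Sesn1 (-1.30 ± 0.16), a stress sensor that holds back mTOR complex 1, Prkaa2 (-0.93 ± 0.24) and Prkab2 (-0.68 ± 0.21), subunits of the energy-sensing kinase AMPK, Tsc1 (-0.86 ± 0.17), a brake on mTOR, Bcl2 (-0.74 ± 0.21), which binds Beclin 1, Akt2 (-0.69 ± 0.11), an insulin-signalling kinase, and Deptor (-0.51 ± 0.16), an mTOR inhibitor. Prkag2, another AMPK subunit, was higher by 0.58 ± 0.13. With STZ averaged over genotype, Sesn1 was higher by 0.88 ± 0.17, while Prkag2 was at -0.79 ± 0.13 and Prkag3 at -1.38 ± 0.28 (1 higher and 2 lower of 29, against 2.16% and 2.38% of all genes). The macrophage markers moved with genotype here too, and their part was not tested.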
